A study of Amphiprion ocellaris with 30 samples.

Results

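Genes whose RNA level differed with SR9243 but hardly with T3 were described in RNA from whole larvae of a clownfish, Amphiprion ocellaris. The genes were chosen from mean differences. S is the SR9243 mean minus the DMSO mean, and T is the T3 mean minus the DMSO mean. A gene was taken when S was at least 0.6 in size, T was under 0.2 in size and the gene stood above the lowest value of the table in all 30 libraries. The 200 genes with the highest mean were left out. This gave 95 genes of the 22816 in the table, of which 41 were higher and 54 lower with SR9243. They are called the higher and the lower members here. S and T chose them, so their S, T and the difference between the treatments are given as descriptions with no test.

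The study had 10 libraries with SR9243 at 1e-07 M, 10 with T3 at 1e-07 M and 10 with the solvent DMSO (dimethyl sulfoxide) at 0.0001%. All were wild-type larvae, sampled after 5 days of treatment in sea water held at 27°C in beakers. The labels do not say whether SR9243 and T3 larvae also received DMSO, whether a library is 1 larva, or which larvae shared a beaker. The spread between libraries may thus be partly technical. The T3 titles carry a further tag, IOP, which is not explained. Values are the authors' variance-stabilised counts, given here in log2-like units. They follow log2 at high levels and are compressed at low levels, and sequencing depth is unknown. In RNA of a whole larva, fewer cells of a type and less RNA per cell cannot be told apart. Genes are listed under Ensembl IDs alone and no symbol could be attached to any member, so gene functions are not given and the larval tissue was not checked against marker genes.

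SR9243 is a synthetic ligand of the liver X receptors (LXR), nuclear receptors that bind oxidised cholesterol derivatives. In mammals, LXR turns on genes of cholesterol export and fatty acid synthesis, and SR9243 lowers the activity of such genes. T3, triiodothyronine, is the active thyroid hormone. It binds nuclear receptors of its own, which share the partner RXR with LXR, and it drives metamorphosis of the larva to the juvenile in teleost fish and in amphibians.

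The 95 members were a small part of the genes with a difference of this size. Among the 20364 genes that passed the filters on level, S was at least 0.6 in size for 1651, and the members made up 5.75% of these. Of the 1027 genes higher with SR9243, 974 had a T of at least 0.2 in the same direction and 12 had one in the opposite direction. Of the 624 genes lower with SR9243, 548 had a T of at least 0.2 in the same direction and 22 in the opposite one. A further 3 higher and 4 lower genes met the limits on S and T but were at the lowest value in at least 1 library, and 1 higher gene met them but was among the 200 most abundant.

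**Figure D1:**
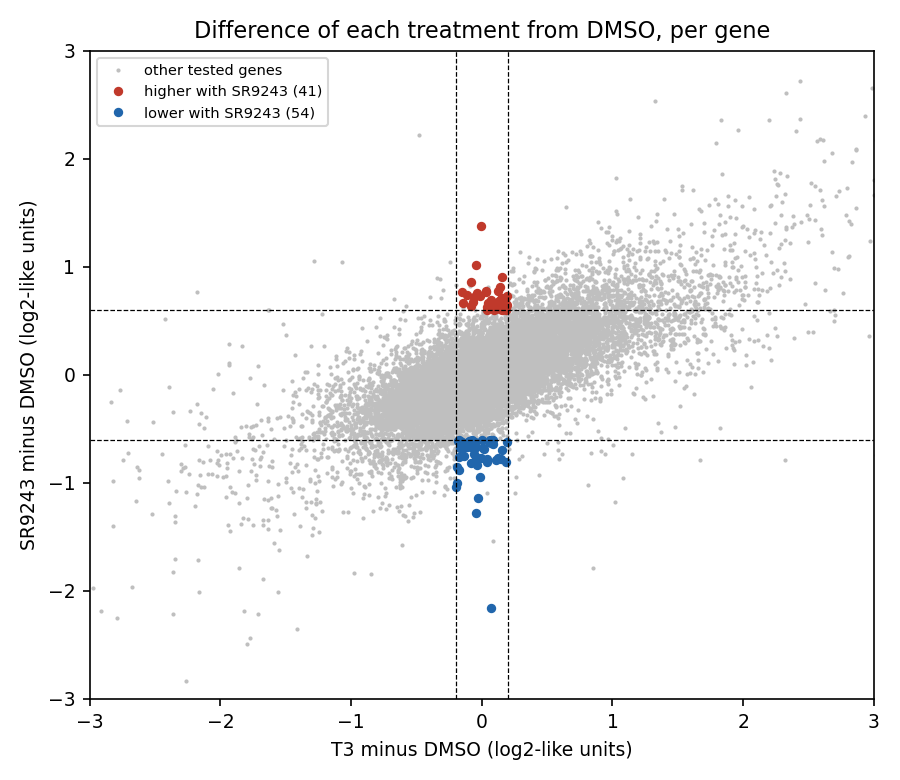
Difference of SR9243 from DMSO (vertical axis) against the difference of T3 from DMSO (horizontal axis) for tested genes, in log2-like units, with members coloured and the limits of 0.6 and 0.2 dashed; 91 genes lie outside the plotted range. Both axes share the DMSO libraries, and the members fill 2 narrow windows above and below a cloud in which most genes with a large SR9243 difference also had a T3 difference of the same sign.

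Most members lay close to the limit on S. Among the higher members S had a median of 0.66 and ran up to 1.38, with 25 of 41 below 0.7 and 2 of at least 1. Among the lower members S had a median of -0.67 and reached -2.16, with 32 of 54 below 0.7 in size and 5 of at least 1. At the limit, the smallest S of a higher member was 0.602 and the next gene outside stood at 0.5997. Among lower members the smallest size was 0.6004, and 0.597 was just outside. For T, the largest size inside was 0.195 among higher and 0.197 among lower members, and the nearest genes outside stood at 0.203 and 0.204. A further 45 higher and 59 lower genes had an S of 0.5 to 0.6 in size with T under 0.2.

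A small T was not a narrowly bounded one. T was positive for 30 of 41 higher members and negative for 36 of 54 lower members, with medians of 0.11 and -0.06. S and T subtract the same DMSO mean, so signs that match are not a result, and without DMSO libraries 4 and 7 the medians of T were 0.10 and 0.0025. The limma 95% interval of T extended by a median of 0.37 to each side for higher and 0.36 for lower members. It lay wholly within 0.6 of 0 for 31 of 41 higher and 43 of 54 lower members. For 8 higher and 8 lower members it reached 0.6 in the direction of S, and for 5 and 8 in the opposite direction. A T3 difference as large as the limit on S thus lay inside these intervals. T was part of the choice, so these are not the intervals of genes chosen without it.

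The higher member with the largest S was ENSAOCG00000024485, whose 10 SR9243 libraries all lay above every T3 and every DMSO library. It ran from 10.54 to 11.38 with SR9243 (median 10.81), from 8.72 to 9.97 with T3 (median 9.50) and from 8.08 to 10.20 in DMSO (median 9.65). S was 1.38 (SE 0.20) and T was -0.01, with a 95% interval of -0.41 to 0.40. No other higher member was separated from DMSO in this way. Its values within treatments were also compared by library number, and neither difference passed the test. The values did not overlap between libraries 1 to 5 and 6 to 10 within SR9243 or within T3. How many of all tested genes were so separated was not counted, so this is description only. With T3 they ran from 9.64 to 9.97 in libraries 1 to 5 and from 8.72 to 9.35 in 6 to 10. With SR9243 they ran from 10.54 to 10.77 in libraries 1 to 5 and from 10.85 to 11.38 in 6 to 10. T3 libraries 6 to 10 were 0.74 below T3 libraries 1 to 5 (SE 0.24, limma adjusted p = 0.109). SR9243 libraries 6 to 10 were 0.41 above SR9243 libraries 1 to 5 (limma adjusted p = 0.432). In the sets of libraries tried below, SR9243 libraries 6 to 10 and T3 libraries 1 to 5 fall together. By set, both differences thus had the same sign.

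The higher member with the next largest S, ENSAOCG00000018413, rested on 1 DMSO library. It lay between 12.03 and 12.55 in SR9243 libraries (median 12.41), between 10.61 and 11.60 in T3 libraries (median 11.35) and between 6.33 and 12.85 in DMSO libraries (median 11.72). All SR9243 libraries were above all T3 libraries, but the DMSO libraries overlapped both. DMSO library 7 stood at 6.33 and the next lowest DMSO library at 10.88. With all libraries S was 1.02 (SE 0.45) and T -0.04. Without DMSO library 7, S was 0.46 and T -0.60, so that the gene would no longer have been a member and its larger difference from DMSO would have been the T3 one.

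ENSAOCG00000000933 had the largest S of the lower members and the widest spread in DMSO. With SR9243 it lay between 4.27 and 5.65 (median 4.78), with T3 between 5.99 and 10.53 (median 6.51) and in DMSO between 3.89 and 9.70 (median 7.64). Every SR9243 library was below every T3 library, whereas DMSO libraries lay both below and above the SR9243 range. S was -2.16 (SE 0.66) and T was 0.07, with a 95% interval of -1.28 to 1.42. T depended on how a group was summarised, at -1.13 with group medians and 0.55 without DMSO libraries 4 and 7.

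ENSAOCG00000023944 had the next largest S of the lower members and moved less when libraries were left out. It ran from 6.04 to 7.60 with SR9243 (median 7.14), from 7.54 to 9.05 with T3 (median 8.46) and from 7.25 to 9.26 in DMSO (median 8.30). The SR9243 range overlapped the lower end of both others. S was -1.28 (SE 0.22) and T was -0.05, with a 95% interval of -0.50 to 0.40. Leaving out single libraries moved S between -1.40 and -1.17 and T between -0.16 and 0.06. Without DMSO libraries 4 and 7, S was -1.11 and T 0.13.

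**Figure D2:**
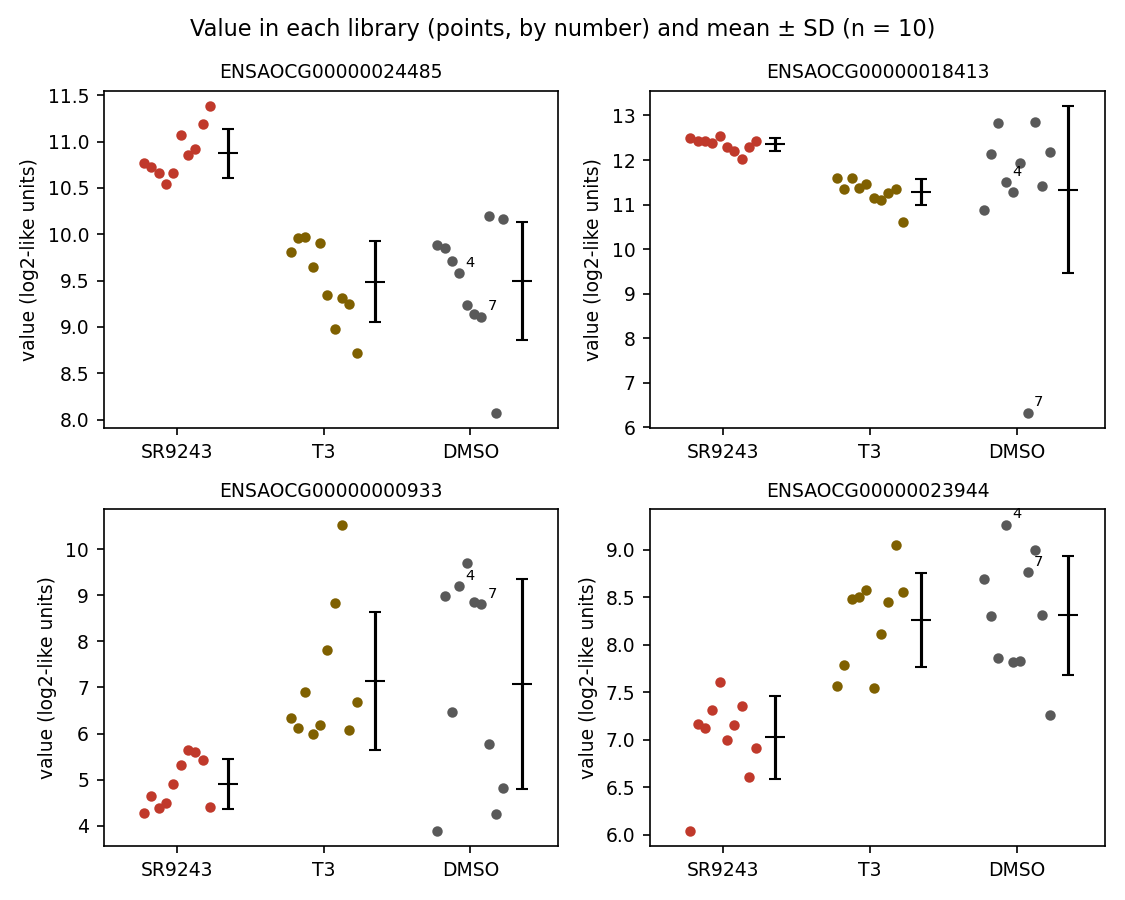
Values of the 4 members in each library, in log2-like units, for SR9243, T3 and DMSO, with points placed by library number, means ± SD (n = 10) beside them, and DMSO libraries 4 and 7 marked. In ENSAOCG00000024485 the SR9243 libraries (10.54 to 11.38) are separate from both other groups, in ENSAOCG00000018413 DMSO library 7 lies at 6.33, and in ENSAOCG00000000933 the DMSO libraries span 3.89 to 9.70.

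Complete separation of SR9243 from DMSO libraries was rare among the members, as it was among all tested genes. Between SR9243 and DMSO, 1 of 41 higher members had no overlap of libraries, where 1.19% of all 22615 tested genes were so separated upwards. The same held for 0 of 54 lower members, with 0.5% downwards over all genes. Between SR9243 and T3 there was no overlap for 5 of 41 higher and 3 of 54 lower members, beside 2.81% and 3.26% of all genes. T3 and DMSO libraries overlapped for every member, while 12.0% of all genes were separated in either direction. In the limma fit over all genes, 34 of 41 higher members were called for SR9243 against DMSO (Benjamini-Hochberg adjusted p under 0.05), where 15.0% of tested genes were called higher. Of the lower members 50 of 54 were called, with 14.1% of tested genes called lower. For SR9243 against T3 the fit called 32 higher and 48 lower members, beside 17.1% and 17.5% of tested genes. For T3 against DMSO it called 0 of the 95, beside 50.5% of tested genes in either direction, and 0 had an unadjusted p under 0.05, beside 55.8% of tested genes. The rule used these contrasts, so the counts describe the choice of members and are not support for it.

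The members' values were then followed library by library, as the median over members of the value minus the DMSO mean. For the higher members this median ran from 0.32 to 1.06 in SR9243 libraries, from -0.14 to 0.46 in T3 libraries and from -0.26 to 0.37 in DMSO libraries. For the lower members it ran from -0.95 to -0.39 in SR9243, from -0.43 to 0.17 in T3 and from -0.35 to 0.18 in DMSO libraries. These orders follow from the choice of members. The range inside each treatment was not set by the rule directly. Single libraries enter the means that chose the members, so it is not free of the choice either. SR9243 libraries 7 and 8 had the smallest shifts, 0.32 and 0.33 for the higher members and -0.47 and -0.39 for the lower members. In the other 8 SR9243 libraries the shift was at least 0.57 for higher members and at least 0.72 in size for lower members. T3 library 2 was nearest to the SR9243 libraries, with 0.46 for the higher members and -0.43 for the lower members. These values overlap those of SR9243 libraries 7 and 8. Over all tested genes, SR9243 libraries 8 and 7 lay farthest from the other SR9243 libraries, at root-mean-square distances of 0.372 and 0.346. SR9243 library 3 was next at 0.335. T3 library 2 lay farthest in T3 at 0.363, with T3 library 9 next at 0.309. These libraries were thus the farthest of their treatment over all genes too, though SR9243 library 7 only just exceeded SR9243 library 3.

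**Figure D3:**
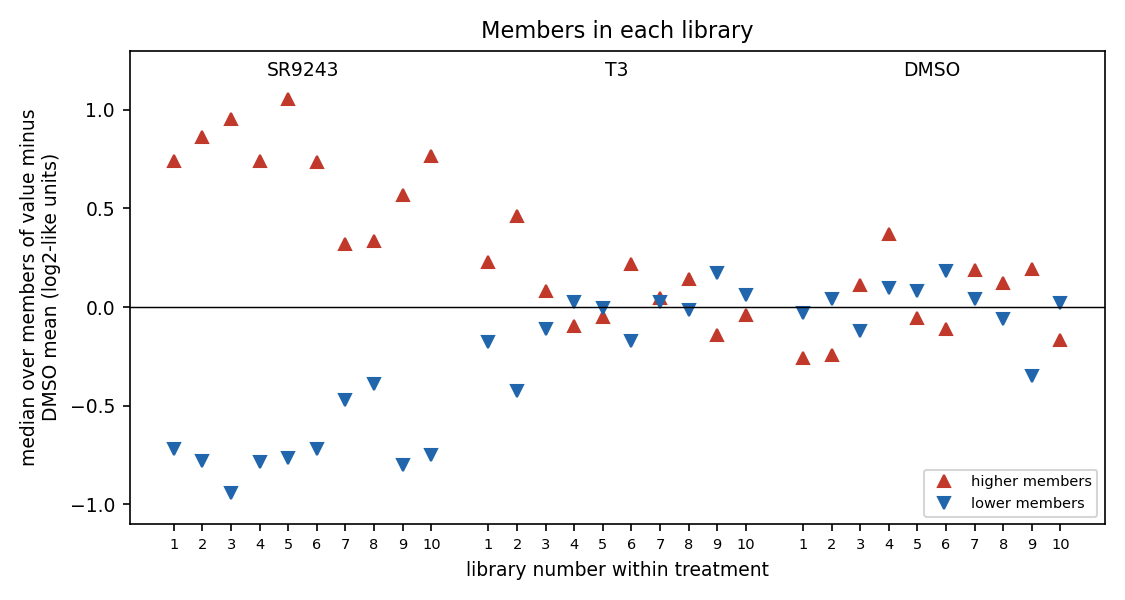
Median over the 41 higher members (upward triangles) and the 54 lower members (downward triangles) of the value minus the DMSO mean, in log2-like units, for each library of SR9243, T3 and DMSO. SR9243 libraries 7 and 8 lie closest to 0 within SR9243, and T3 library 2 (0.46 and -0.43) lies farthest from 0 within T3.

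Counting members also set SR9243 libraries 7 and 8 apart from the other 8, whose order differed between the counts and the medians. In SR9243 libraries 7 and 8, 28 and 29 of the 41 higher members were above their DMSO mean, and in the other SR9243 libraries 39 to 41 were. Of the 54 lower members, 48 and 38 were below their DMSO mean in SR9243 libraries 7 and 8, and 52 to 54 in the others. In T3 library 2 the counts were 36 and 49.

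Libraries numbered 1 to 5 and 6 to 10 are known from earlier work on these data to differ within SR9243 and T3, and the labels do not say what the numbers stand for. Among higher members, 33 of 41 were lower in SR9243 libraries 6 to 10 than in 1 to 5, with a median difference of -0.31. Among lower members, 41 of 54 were higher in SR9243 libraries 6 to 10, with a median of 0.26. Over all tested genes, which were not chosen by sign, the median was -0.01. The limma test called 0 of the 95 members for this difference, beside 3.82% of all tested genes, and 12 higher and 7 lower members had an unadjusted p under 0.05, where 15.9% of all tested genes did. S for higher members had a median of 0.54 from SR9243 libraries 6 to 10 and of 0.86 from libraries 1 to 5. For lower members it was -0.61 from libraries 6 to 10 and -0.80 from libraries 1 to 5. The sign of S was the same in both divisions for all 95 members. Both divisions are parts of the S that chose the members, and both subtract the mean of all DMSO libraries. Matching signs thus largely follow from the choice and are not support for it. SR9243 libraries 7 and 8, with the smallest shifts, are among libraries 6 to 10. In SR9243 libraries 6, 9 and 10 the median shift of higher members was 0.73, 0.57 and 0.77, beside 0.74 to 1.06 in libraries 1 to 5. For lower members it was -0.72, -0.80 and -0.75, beside -0.95 to -0.72. The difference by number thus lay largely in libraries 7 and 8, above all for lower members.

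The same division of the T3 libraries was made. In T3 libraries 6 to 10, 41 of 54 lower members were higher than in T3 libraries 1 to 5, with a median difference of 0.21. The median over all tested genes, which were not chosen by sign, was 0.01. For higher members the median was -0.03, with 20 of 41 higher. The test called 1 of the 95 members, a lower member, beside 3.15% of all tested genes, and 6 higher and 11 lower members had an unadjusted p under 0.05, where 11.4% of all tested genes did. T of the lower members had a median of 0.11 from T3 libraries 6 to 10, below the DMSO mean for 20 of 54. From T3 libraries 1 to 5 the median was -0.16, below it for 46 of 54. In DMSO the same division gave medians of 0.04 for higher and -0.10 for lower members, and limma called 0 members and 0.0752% of tested genes, with 3 higher and 2 lower members at an unadjusted p under 0.05, where 7.3% of tested genes had one.

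Values of the members were widely spread between libraries. Their median SD was 0.378 among SR9243, 0.327 among T3 and 0.508 among DMSO libraries. Over all tested genes the medians were 0.230, 0.216 and 0.287. The 1556 other genes with an S of at least 0.6 in size lay between, at 0.321, 0.280 and 0.463. In DMSO the SD of single members ran from 0.251 to 1.87 among higher and from 0.207 to 2.27 among lower members. A gene with a wide spread passes a limit on S more easily, so an SD above that of all tested genes may follow from the choice. No test of these differences was made, because genes of 1 library are not independent.

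DMSO libraries 4 and 7 lay farther from the mean of the other DMSO libraries than any other did. Their root-mean-square distance over all tested genes was 0.437 and 0.720, and the largest among the other 8 was 0.387. For 32 of 41 higher and 37 of 54 lower members, DMSO library 4 or 7 was the highest or the lowest of its group. That is 72.6% of members, close to the 65.8% of all tested genes. Taken singly, library 7 was the highest or lowest for 28 higher and 21 lower members, and library 4 for only 6 and 17. Library 1 was so for 5 and 21 and library 2 for 13 and 2, so library 4 did not stand out among the members by this count. For library 7 the share was 51.6% of members and 51.6% of all tested genes, for library 4 it was 24.2% and 20.3%, and for library 1 it was 27.4% and 28.7%.

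Which genes were members depended on the DMSO libraries used. Without DMSO libraries 4 and 7 the rule gave 44 higher and 51 lower genes, nearly as many as before, but only 12 higher and 19 lower genes were the same. Thus 31 of the 95 members (32.6%) were kept, ENSAOCG00000024485 and ENSAOCG00000023944 among them. Most of the loss came from T, which moved past 0.2 in size alone for 17 higher and 18 lower members. S alone moved below 0.6 in size for 9 higher and 9 lower members, and both limits were crossed for 3 and 8. S stayed past its limit for 66 of 95 members (69.5%), and for 79.2% of the other genes with an S of at least 0.6 in size. Without these libraries T ran from -0.65 to 0.79 among higher and from -0.41 to 0.86 among lower members. The largest shift in a lower member took S to 0.02 and T to 0.86, so that the SR9243 and DMSO means were nearly equal.

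**Figure D4:**
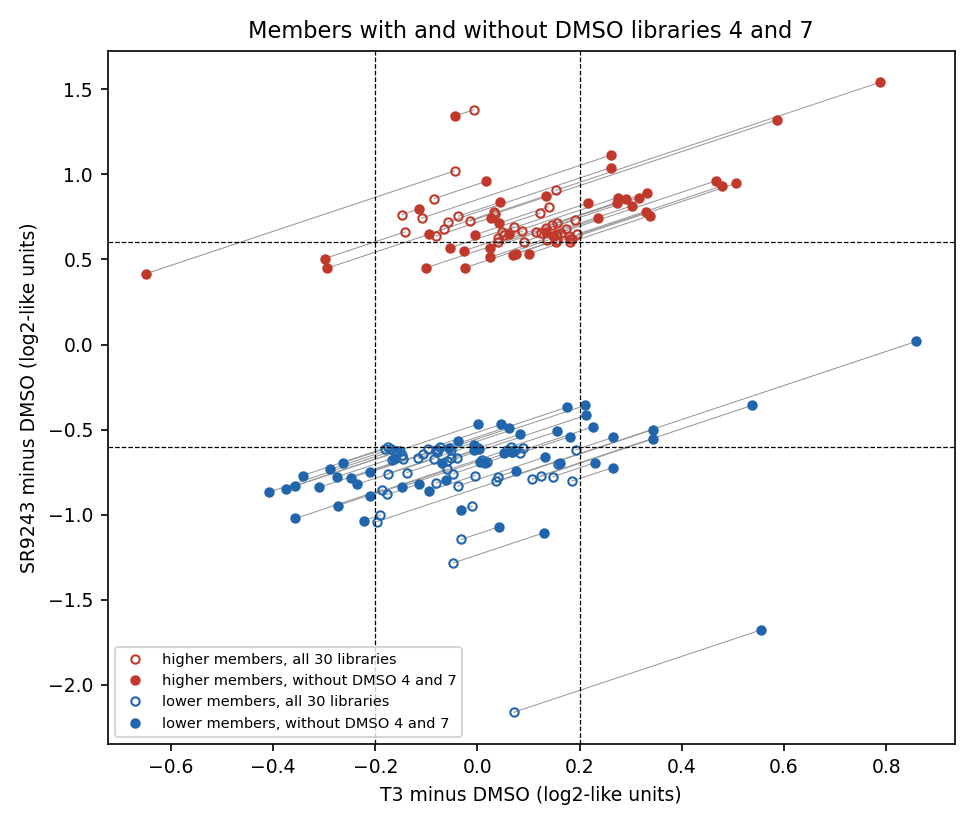
S (vertical axis) and T (horizontal axis) of each member with all 30 libraries (open circles) and without DMSO libraries 4 and 7 (filled circles), in log2-like units, joined by lines, with the limits of 0.6 and 0.2 dashed. The lines run parallel because the DMSO mean enters S and T alike, and 31 of the 95 filled circles remain inside the limits.

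Membership also moved when single libraries were left out. Leaving out 1 SR9243 library kept 32 to 40 of the 41 higher and 38 to 51 of the 54 lower members. Leaving out 1 T3 library kept 34 to 40 higher and 47 to 52 lower members. Leaving out 1 DMSO library kept 21 to 37 higher members, the fewest without library 7, and 30 to 48 lower members, with 30 without library 4 and 30 without library 7. Libraries 4 and 7 were not alone in this. Without DMSO library 2, 25 higher members were kept, fewer than the 28 without library 4, and without DMSO library 1, 32 lower members were kept. In all 30 of these runs 8 higher and 11 lower members met the rule.

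The members did not vary between libraries as 1 block. After the mean of each treatment was removed, the correlation between 2 members over the 30 libraries had a median of 0.14 among higher members, 0.14 among lower members and -0.11 between a higher and a lower member. Of 4465 pairs, 193 had a correlation above 0.7 and 141 one below -0.7. Without DMSO libraries 4 and 7 these counts were 186 and 135. Joining members by average linkage at a correlation of 0.5 gave 6 co-varying groups of at least 5 members, with 60 members in all. They were formed from these libraries and are given as a description.

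The first group had 15 lower members and 1 higher member (median correlation 0.83), and the second had 15 higher members and 1 lower member (0.72). The 2 groups varied in opposite senses in the same libraries. In SR9243 libraries 7 and 8 the first group stood at 0.52 and 0.74 around its SR9243 mean, above the other SR9243 libraries, and the second group at -0.81 and -0.78, below them. In T3 library 2 the first group was lowest, at -0.53, and the second highest, at 0.51. In DMSO library 7 they stood at -0.93 and 0.99, and in DMSO library 4 at -0.43 and 0.78. The other DMSO libraries lay between -0.10 and 0.64 for the first group and between -0.63 and 0.30 for the second. Thus DMSO libraries 4 and 7 were shifted from their group's mean in the sense of the SR9243 difference, and SR9243 libraries 7 and 8 in the opposite sense. Of the 16 members in each group, 3 and 3 were kept without DMSO libraries 4 and 7.

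The third group stood in the other sense in DMSO libraries 4 and 7, and the fourth in library 7 alone. The third held 9 lower members, ENSAOCG00000000933 among them, and stood 1.44 above its DMSO mean in DMSO library 4 and 0.57 above it in DMSO library 7. In SR9243 and T3 libraries its medians stayed between -0.38 and 0.45, while the DMSO libraries other than 4 and 7 spanned -0.83 to 0.82. The fourth held 8 higher members, among them ENSAOCG00000018413, and stood at -1.67 in DMSO library 7 and at 0.25 in DMSO library 4, while its medians stayed between -0.30 and 0.32 in SR9243 and T3 libraries. Its median correlation fell to 0.34 without DMSO libraries 4 and 7, against 0.68 with them. No member of these groups was kept without the 2 libraries.

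The fifth and the sixth group, with 6 and 5 lower members, varied within more than 1 treatment. The fifth ran from -0.64 in T3 library 1 to 0.92 in T3 library 9. Its median was below the T3 mean in T3 libraries 1 to 6 and above it in T3 libraries 7 to 10. It ran from -0.78 to 0.98 among the DMSO libraries other than 4 and 7. The sixth ran from -0.74 in T3 library 2 to 0.67 in T3 library 10, from -0.74 to 0.57 among SR9243 libraries and from -0.61 to 0.62 among the DMSO libraries other than 4 and 7. Without DMSO libraries 4 and 7 their median correlations were 0.64 and 0.78, and 5 and 2 of their members were kept. Of the 35 members in no such group, 18 were kept, against 13 of the 60 in groups. The groups were formed with DMSO libraries 4 and 7 included, so this contrast is not independent of those libraries.

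**Figure D5:**
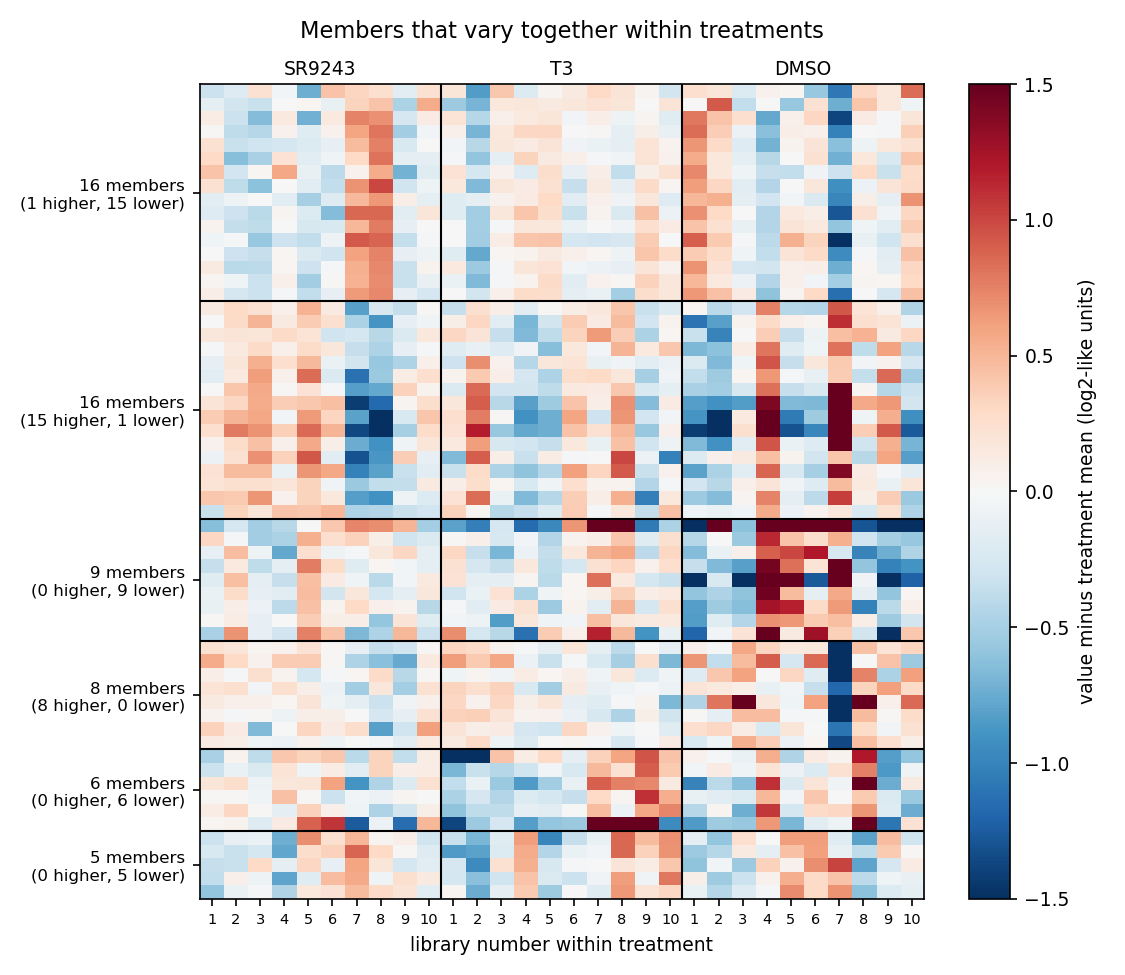
Value minus the treatment mean, in log2-like units, for 60 members (rows) in the 6 co-varying groups and for each library (columns) of SR9243, T3 and DMSO; colours are capped at 1.5 in either direction. The first and second groups show opposite colours in SR9243 libraries 7 and 8, T3 library 2 and DMSO libraries 4 and 7, and the fourth group is low in DMSO library 7 (-1.67).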

How the data were processed

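RNA of whole larvae was sequenced from stranded poly(A) libraries, per the labels' protocols. The submitters' processing notes list FastQC 0.11.8 and kallisto 0.46.1, and for the annotation and the final normalisation step the tool is not given in the sources used here. Deposited values are variance-stabilised counts on a log2-like scale in 1 table, with a lowest value common to all libraries. Total counts are unknown, so no interval based on depth is given. All 30 columns were matched to samples (0 without one), with groups and library numbers from the titles. Of the table's Ensembl IDs, 0 matched the reference table of 28286 genes, so no symbols, coordinates or sequences are printed, and the gene lists prepared by symbol could not be used. By rule, the 2 members with the largest S in each direction are named by ID. Genes nearest the limits are given without IDs.

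The 22615 genes that exceeded the lowest value in 10 or more libraries were fitted with limma 3.58.1 (R 4.3.3, empirical Bayes with trended variance) over the 3 treatments, and in a second fit with library numbers 1 to 5 and 6 to 10 as separate cells within each treatment. Two-sided p-values were adjusted over all tested genes by the Benjamini-Hochberg method, with a threshold of 0.05. Both fits were tested on simulated data. Genes in that simulation varied independently, few were changed and no library was stray, so it checked the code, not data like these. Counts for the division by number differ from separate fits per treatment, because 1 estimate of spread is shared. Other steps used Python 3.11.15. No 2 libraries were counted as duplicates (highest correlation 0.987). The members, the lists and the division by library number were chosen with earlier results of these data known. Alternatives were other limits, filters, scalings and centres, a replicate block and leaving out libraries.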

Additional observations from a re-analysis of the deposited data

Results flagged for a closer look

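For each treatment, the 4 named members and the 2 medians over members were screened for a library apart from the others. Of these 18 sets of 10 libraries, 3 held one. Chance gives about 1 in 20, but only for sets not chosen on their values. The named members were chosen by S, which a stray library can enlarge, and the sets share libraries. The 3 flags are thus not set against that rate. ENSAOCG00000018413 in DMSO library 7 stood at 6.33, a gap of 0.697 of the group's range. The same gene in T3 library 10 stood at 10.61, a gap of 0.501 of the range, and T was 0.03 without it. ENSAOCG00000024485 in DMSO library 9 stood at 8.08, a gap of 0.487 of the range. Without that library S was 1.22 and T -0.16, so that the gene would have remained a member.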

How the results depend on the processing

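The number of members followed the limits chosen. With S of at least 0.5 in size there were 86 higher and 113 lower members, and with 0.7 there were 16 and 22. With T under 0.1 there were 17 and 30, and with T under 0.3 there were 67 and 92. With a mean of at least 6 the counts were 27 and 43. With group medians in place of means they were 61 and 86, of which 18 and 26 were among the main members. Equal library medians gave 40 and 48 (31 and 39 shared) and quantile normalisation 47 and 46 (34 and 41 shared). Without 1 library in turn, counts ran from 31 to 53 higher and from 39 to 72 lower members.

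The sets of libraries known from earlier work were tried after seeing the data. In the first set (SR9243 6 to 10, T3 1 to 5, DMSO 1 to 4) the rule gave 30 higher and 26 lower genes, 8 and 9 of them main members. In the second set (SR9243 1 to 5, T3 6 to 10, DMSO 5 to 10) it gave 104 and 145, with 31 and 34 main members. Main members found in both sets numbered 5 and 4. Both sets have fewer libraries per treatment than the full data, which widens the spread of S and T by construction. The first set gave fewer genes than all libraries did, and the second gave more. The cause of this difference between the sets was not tested. With the set as a term the counts were 39 and 55, with 36 and 49 shared.

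Same-numbered libraries correlated above 0.1 in 7 of 30 pairs, and the same-numbered library was the best match in 4 of 30. These correlations ran from -0.28 to 0.18. They gave no clear sign of pairing by number, but cannot show that same-numbered libraries shared no beaker. With a replicate block, 32 higher and 49 lower members were called for SR9243 against DMSO, and 6197 genes in all against 6568 without it. The replicate block gave 11131 calls over all genes between T3 and DMSO and 7453 between the treatments. The counts of called genes stayed within 1.5 times under the filters, scalings, variance models and left-out libraries tried. Depth is unknown, so detection limits for genes at low values cannot be given.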
